A study of Mus musculus with 6 samples.

Results

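The genes of the lysosome and of its proton pump were followed in bone marrow derived macrophages (BMDMs) that lacked or retained a functional hnRNPD gene, which encodes the AU-rich element binding protein AUF1. The 38 genes were taken by symbol from the 18430 gene symbols with a count. They fall into 16 genes of the vacuolar H+-ATPase (V-ATPase), 11 lysosomal hydrolases, 7 lysosomal membrane proteins and 4 cofactors and regulators. The cathepsins were left out. For each gene the most abundant transcript, by mean normalized count, stands in, and the values below are counts divided by 1 size factor per library.

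Control BMDMs came from hnRNPDfl/fl mice and M-Δx3,4 BMDMs from LysCre+hnRNPDfl/fl mice, both on C57BL/6J. Both groups carried the allele with loxP sites around exons 3 and 4, and only M-Δx3,4 mice carried Cre, which is driven by the lysozyme M gene and acts in the myeloid lineage. Bone marrow of either genotype was cultured for 10 days in medium with L929 supernatant and then exposed to 100 ng/ml LPS for 4 hours. There were 3 libraries per group and no library without LPS. The bone marrow came from mice of 6 to 8 weeks of age. The labels do not say whether each library had its own mouse, so p-values measure the spread between these libraries, which may be partly technical.

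Lysosomes degrade what macrophages engulf and what autophagy delivers. The V-ATPase couples ATP hydrolysis by a cytosolic V1 sector to proton transport through a membrane V0 sector, and the hydrolases need the acid lumen that it creates. Heavily glycosylated proteins such as LAMP1 and LAMP2 line the membrane, and TFEB is a transcription factor that acts on many lysosomal genes through an E-box-like element in their promoters.

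Total transcript counts ran from 5852374 to 6666525 in the control and from 6627536 to 9008878 in the M-Δx3,4 libraries. As a check of the labels, Hnrnpd (p37 transcript) had 177.8, 104.2 and 69.6 normalized counts in control and 52.8, 12.6 and 16.0 in M-Δx3,4 BMDMs. The counted 3′ end lies outside the deleted exons and does not itself read the deletion. Of the 10 macrophage markers all were tested and 1 was called at an unadjusted p under 0.05. This was Lyz2, the gene whose locus drives Cre, with a log2 fold change of -0.91 (SE 0.30). Summed macrophage markers ran from 6734.0 to 7401.4 in control and from 5624.2 to 7337.2 in M-Δx3,4. The summed level of 8 B cell markers lay between 326.9 and 367.8 in control and between 144.7 and 174.1 in M-Δx3,4 libraries. Igkc made up from 68.1% to 70.0% of these sums in control and from 40.9% to 64.1% in M-Δx3,4. Summed proliferation markers ran from 607.9 to 925.2 in control and from 586.5 to 629.0 in M-Δx3,4. Summed neutrophil markers ran from 389.3 to 695.0 and from 482.2 to 728.3, those of stromal fibroblasts from 42.9 to 60.4 and from 9.7 to 73.4, and those of dendritic cells from 8.1 to 20.9 and from 9.8 to 16.5. Summed T and NK cell markers ran from 45.2 to 55.8 in control and from 25.4 to 42.7 in M-Δx3,4, with 5 of the 8 at 0 in every library. The 8 osteoclast markers summed to between 455.6 and 671.7 in control and between 367.6 and 425.5 in M-Δx3,4. Acp5 made up between 68.0% and 85.7% of these sums, while Dcstamp and Calcr were at 0. Beside Lyz2, the markers called were Igkc (log2 fold change -1.56, SE 0.34), Mcm5 (-0.82, SE 0.36), Cdk1 (-1.13, SE 0.53) and Col3a1. All were lower in M-Δx3,4. Col3a1 had few counts, with 13.9, 6.1 and 0.0 normalized counts in control and 0.0 in every M-Δx3,4 library. The part of these markers in the values of the lysosomal genes was not tested, and in bulk RNA fewer cells of a type and less RNA per cell cannot be told apart.

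Of the 38 genes 37 passed the filter on low counts. Cd63 and Psap were called by the quasi-likelihood test of edgeR (unadjusted p under 0.05), and both were lower in M-Δx3,4 BMDMs. Cd63 encodes a tetraspanin of late endosomes and lysosomes, and Psap encodes prosaposin, the precursor of the saposins that present sphingolipids to their hydrolases. These were 2 of 37 genes (5.41%). Among the 11875 genes tested, by 1 transcript each, 2.53% were lower and 1.45% were higher at the same p. No gene of the group reached an absolute log2 fold change of 1 at that p, against 3.07% of all genes. No gene of the group had an adjusted p under 0.05 (the smallest was 0.984). Hnrnpd, the deleted gene, had a log2 fold change of -2.11 (SE 0.54) and an adjusted p of 0.984 (edgeR) as well. An adjusted p above 0.05 thus does not show that a gene was unchanged. By DESeq2's Wald test and by limma-voom 2 genes of the group were likewise called at the unadjusted p (5.41%, against 3.01% and 3.23% of all genes in these fits) and 0 at the adjusted p.

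In 6 of the 37 genes every M-Δx3,4 library lay under every control library (Cd63, Psap, Atp6v1b2, Tpp1, Gusb and Ppt1), and in 1, Atp6v1d, every M-Δx3,4 library lay above. Over all genes tested 4.26% were lower and 4.18% were higher without overlap, against 16.2% and 2.7% of the group. Of the 90 other lysosomal genes tested, which are described below, 3.33% were lower and 4.44% were higher without overlap. The excess of lower genes was thus not seen in the other genes of the lysosome. The exact permutation test gave p = 0.1 (two-sided) for each of the 7 genes of the group, the smallest that 3 libraries against 3 allow. The changes were small. The log2 fold change was within 0.5 of 0 for 32 of the 37 genes, and the median standard error was 0.34. The median log2 fold change was -0.09 over the 37 genes and -0.007 over all genes tested. It was 0.09 for the V-ATPase, -0.23 for the hydrolases, -0.07 for the membrane proteins and 0.07 for the 3 cofactors tested.

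**Figure D1:**
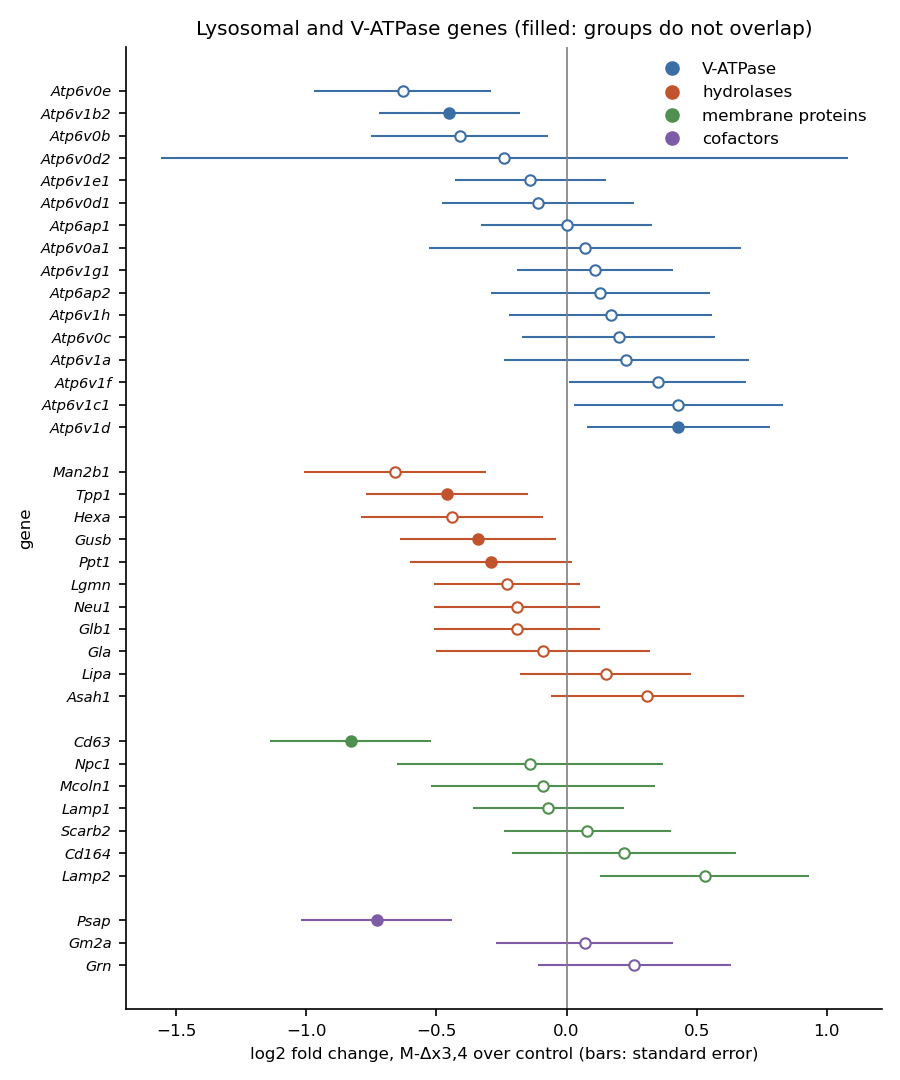
Log2 fold change of M-Δx3,4 over control (horizontal axis, bars give the standard error) for the 37 genes tested, in rows by group: V-ATPase, hydrolases, membrane proteins and cofactors. Filled points mark the 7 genes whose libraries did not overlap between the groups. The hydrolases lie mostly left of 0 (9 of 11), the V-ATPase genes lie on both sides (9 above and 7 below), and no point passes 1 in either direction.

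Together the 38 genes took 2.5%, 2.84% and 3.55% of the counts of the control libraries (1 transcript per gene) and 2.51%, 2.45% and 2.19% of those of the M-Δx3,4 libraries. Control replicate 3 had the highest share. Psap alone made up 0.91%, 0.9% and 1.56% of the counts in control and 0.69%, 0.62% and 0.74% in M-Δx3,4 libraries. By the authors' TPM, which divide by the length of the counted region, Psap had the highest mean level of the group (1710 TPM over the 6 libraries). Grn followed with 883 TPM, Hexa with 627 TPM, Cd63 with 513 TPM and Atp6v1b2 with 419 TPM. Apart from Tfeb, the lowest were Atp6v0d2 with 0.139 TPM, Atp6v0a1 with 0.702 TPM and Cd164 with 0.935 TPM. In 3′ end sequencing a transcript gives about the same number of reads whatever its length, so TPM favour genes with short counted regions such as Cd63, whose region is 324 bases long.

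Of the V1 sector, Atp6v1b2 encodes the B2 subunit, which binds nucleotides beside the catalytic A subunit. It was the most abundant V-ATPase transcript by counts and is read at chr8:69112570-69113960 (mm10, plus strand). Its normalized counts were 8577.6, 9788.9 and 9335.8 in control and 6473.5, 6301.0 and 7569.4 in M-Δx3,4 libraries. The lowest control library was above the highest M-Δx3,4 library. This gave a log2 fold change of -0.45 (SE 0.27, unadjusted p = 0.119, edgeR). The direction was kept with each library left out (-0.53 to -0.40) and under every other alternative.

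Atp6v1d, a central stalk subunit of V1, was the only gene of the group with all M-Δx3,4 libraries above control. Its counts were low, at 70.9, 76.6 and 67.3 in control and 111.5, 95.2 and 82.5 in M-Δx3,4 libraries. These gave a log2 fold change of 0.43 (SE 0.35, unadjusted p = 0.246, edgeR). Its region overlaps that of Mpp5 on the opposite strand, which held 18 counts over the 6 libraries against 514 for Atp6v1d. The other V1 genes overlapped between the groups. Atp6v1e1, a peripheral stalk subunit, had 2812.7, 2795.4 and 3827.4 normalized counts in control and 2676.3, 3115.1 and 2754.2 in M-Δx3,4 libraries (log2 fold change -0.14, SE 0.29). Atp6v1f, Atp6v1g1 and Atp6v1h, which encode the F, G and H subunits, had log2 fold changes between 0.11 and 0.35.

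Atp6v1a, the catalytic A subunit, and Atp6v1c1, the C subunit that joins V1 to V0, had the widest spread between control libraries among the V1 genes, with the highest at 4.65 and 2.81 times the lowest. Atp6v1a had 1587.7, 513.9 and 341.1 normalized counts in the control and 1022.2, 676.8 and 1166.2 in the M-Δx3,4 libraries. Control replicate 1 was thus above, and control replicates 2 and 3 below, all 3 M-Δx3,4 libraries. The log2 fold change of 0.23 (SE 0.47) became 1.16 without control replicate 1 and -0.13 without control replicate 3. Atp6v1c1 had 133.7, 86.8 and 47.6 in control and 127.2, 106.8 and 128.4 in M-Δx3,4 libraries (log2 fold change 0.43, SE 0.40).

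None of the genes of the V0 sector or of the accessory proteins differed at an unadjusted p under 0.05. Atp6v0e, a small membrane subunit, came nearest, with 404.5, 875.6 and 887.5 normalized counts in control and 444.1, 485.5 and 469.2 in M-Δx3,4 libraries (log2 fold change -0.63, SE 0.34, unadjusted p = 0.0862). Here control replicate 1 lay below the M-Δx3,4 libraries and the other control libraries above them. Atp6v0b, a proton-binding ring subunit, had 2172.3, 2852.6 and 5188.2 in control and 2644.0, 2880.1 and 2167.3 in M-Δx3,4 libraries. Its log2 fold change of -0.41 (SE 0.34) rests on control replicate 3, without which it was 0.04. Atp6v0c, the other ring subunit of the group, had a log2 fold change of 0.20 (SE 0.37).

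The d subunit of V0 has a widespread form, Atp6v0d1, and a form known from osteoclasts, Atp6v0d2. Atp6v0d1 had 224.3, 452.6 and 539.5 normalized counts in control and 426.5, 432.1 and 269.8 in M-Δx3,4 libraries (log2 fold change -0.11, SE 0.37). Atp6v0d2 had only 5, 4 and 0 raw counts in control and 1, 7 and 1 in M-Δx3,4 libraries, so a difference was not detectable at this depth. On the TPM scale the means were 41.1 for Atp6v0d1 and 0.139 for Atp6v0d2. Atp6v0a1, which encodes the a1 subunit, had means of 14.7 ± 8.2 and 15.6 ± 7.9 normalized counts (SD, n = 3).

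The accessory proteins Atp6ap1 and Atp6ap2 help the pump to assemble. Atp6ap1 had 2623.3, 4793.8 and 3156.8 normalized counts in control and 2813.2, 4713.4 and 3017.8 in M-Δx3,4 libraries, and the group means, 3524.6 ± 1131.1 and 3514.8 ± 1043.0 (SD, n = 3), were almost equal. Atp6ap2 had 3068.4, 1654.1 and 717.0 in control and 1520.1, 2034.3 and 2383.5 in M-Δx3,4 libraries. Its control libraries spanned more than the M-Δx3,4 libraries and enclosed them (log2 fold change 0.13, SE 0.42).

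Among the hydrolases 9 of 11 had a log2 fold change below 0 and none had an unadjusted p under 0.05. The M-Δx3,4 libraries lay under every control library for 3 of them (27.3%, against 4.26% of all genes tested). Of the 33 other hydrolases tested the share was 6.06%. The hydrolases share the 6 libraries, so they do not count as separate evidence. Tpp1, a tripeptidyl peptidase, had 510.2, 482.2 and 707.7 normalized counts in control and 453.9, 404.9 and 375.2 in M-Δx3,4 libraries (log2 fold change -0.46, SE 0.31, unadjusted p = 0.155). The nearest libraries of the groups were control replicate 2 and M-Δx3,4 replicate 1. Gusb, the β-glucuronidase, had 657.8, 663.1 and 939.7 in control and 630.9, 551.5 and 602.2 in M-Δx3,4 libraries (log2 fold change -0.34, SE 0.30). Ppt1, a thioesterase that removes fatty acids from proteins, had 245.2, 214.6 and 225.1 in control and 185.9, 198.1 and 177.3 in M-Δx3,4 libraries (log2 fold change -0.29, SE 0.31). A Ppt1 region with 1232 counts over the 6 libraries overlaps in part one of Cap1 on the opposite strand, which held 2519. Tpp1, Gusb and Ppt1 stayed below 0 with each library left out. Once the GC trend was removed, Tpp1 reached an unadjusted p under 0.05 (log2 fold change -0.74, edgeR). With the replicate block in addition Tpp1 did not (-0.66, unadjusted p = 0.0634, edgeR).

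Hexa, the α subunit of β-hexosaminidase, and Lgmn, an asparaginyl endopeptidase, were the most abundant hydrolase transcripts. Hexa had 2937.1, 3757.8 and 7502.7 normalized counts in control and 4033.0, 3545.2 and 2908.6 in M-Δx3,4 libraries. Only control replicate 3 stood above the rest, and without it the log2 fold change went from -0.44 (SE 0.35) to 0.07. Lgmn had 1863.1, 1728.7 and 2069.7 in control and 1733.3, 1522.6 and 1571.2 in M-Δx3,4 libraries (log2 fold change -0.23, SE 0.28), with 1 M-Δx3,4 library just above the lowest control library. Man2b1, the acid α-mannosidase, was lowest relative to control. It had 197.6, 322.9 and 409.5 in control and 227.9, 169.0 and 193.3 in M-Δx3,4 libraries (log2 fold change -0.66, SE 0.35, unadjusted p = 0.0799). Neu1, Glb1 and Gla, which remove sialic acid, β-galactose and α-galactose, had log2 fold changes of -0.19, -0.19 and -0.09. The lipid hydrolases Lipa and Asah1 had the only values above 0, at 0.15 and 0.31, with overlapping libraries. The region counted for Gla encloses that of Rpl36a, a gene on the opposite strand with up to 8376 counts over the 6 libraries against 453 for Gla, so the counts of the strands were kept apart.

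Cd63 had the largest decrease of the group. It is read at chr10:128912741-128913064 (mm10, plus strand), where its annotated 3′ UTR takes 75 bases. It had 2140.9, 3365.5 and 3325.0 normalized counts in control and 1526.9, 2094.5 and 1363.3 in M-Δx3,4 libraries, or 2943.8 ± 695.6 against 1661.6 ± 383.7 (SD, n = 3). The groups came close at control replicate 1 and M-Δx3,4 replicate 2. The log2 fold change was -0.83 (SE 0.31, unadjusted p = 0.0189, adjusted p = 0.984, edgeR). It stayed between -1.03 and -0.70 with each library left out. The p was no longer under 0.05 without control replicate 2 (-0.72), M-Δx3,4 replicate 1 (-0.77) or M-Δx3,4 replicate 3 (-0.70). A shorter Cd63 transcript that ends upstream and shares no counted bases with it (ENSMUST00000220308) had 438.2, 479.2 and 617.2 in control and 320.8, 356.4 and 297.3 in M-Δx3,4 libraries, also without overlap (log2 fold change -0.66, SE 0.31, unadjusted p = 0.0501). Another one that ends upstream, whose counted region overlaps that of the latter (ENSMUST00000218450), had 130.2, 117.5 and 168.2 in control and 128.1, 102.0 and 74.1 in M-Δx3,4 libraries, which overlapped (log2 fold change -0.45, SE 0.36).

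Lamp1 and Lamp2 are the most abundant glycoproteins of the lysosomal membrane. Lamp1 had 4343.4, 6028.0 and 6035.1 normalized counts in control and 5908.1, 5591.2 and 4082.4 in M-Δx3,4 libraries (log2 fold change -0.07, SE 0.29), and its sign changed with the library left out. Lamp2 had 2571.0, 889.9 and 971.1 in control and 2661.6, 1505.1 and 2242.2 in M-Δx3,4 libraries (log2 fold change 0.53, SE 0.40, unadjusted p = 0.206). Control replicate 1 lay among the M-Δx3,4 libraries and the other control libraries below all of them. Without control replicate 1 the log2 fold change was 1.20. Scarb2, the receptor that carries β-glucocerebrosidase to lysosomes, Npc1, the cholesterol exporter, Mcoln1, a calcium channel, and Cd164, a sialomucin, had log2 fold changes from -0.14 to 0.22. The last 3 had few counts, with group means of 28.5 and 26.0 for Npc1, 40.9 and 38.6 for Mcoln1, and 28.6 and 33.3 for Cd164 in control and M-Δx3,4.

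**Figure D2:**
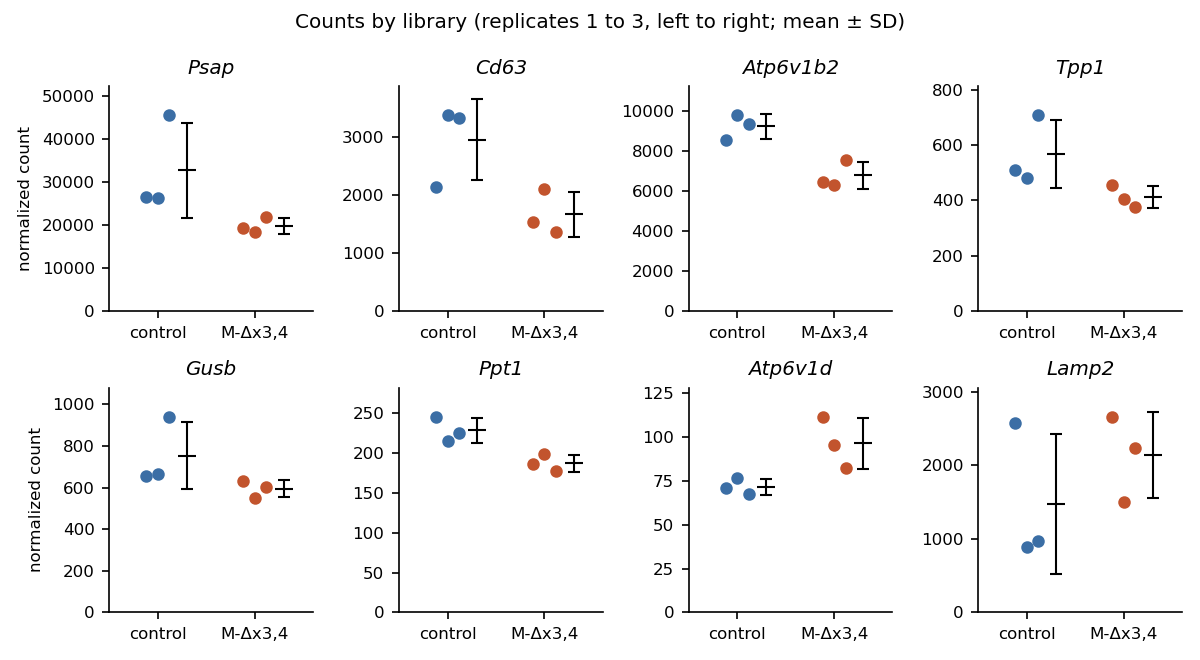
Normalized counts (vertical axes, from 0) of 8 genes in the 3 control and 3 M-Δx3,4 libraries, with the mean and SD of each group beside the points. Psap, Cd63, Atp6v1b2, Tpp1, Gusb and Ppt1 have every M-Δx3,4 point under every control point, Atp6v1d has every one above, and in Lamp2 control replicate 1 lies among the M-Δx3,4 libraries.

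Psap, the most abundant transcript of the group, is read at chr10:60301730-60302846 (mm10, plus strand). It had 26502.2, 26260.7 and 45559.4 normalized counts in control and 19328.5, 18277.6 and 21832.5 in M-Δx3,4 libraries. All M-Δx3,4 libraries were below the control group, and control replicate 3 stood well above the other control libraries. The log2 fold change was -0.73 (SE 0.29, unadjusted p = 0.0248, adjusted p = 0.984, edgeR). Without control replicate 3 it was -0.40, and with the GC trend removed -0.52, and in neither was the p under 0.05. It was also above 0.05 without M-Δx3,4 replicate 1 (-0.71) or replicate 2 (-0.67).

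The other cofactors overlapped between the groups. Grn, which encodes progranulin, a partner of prosaposin in the lysosome, had 4309.7, 9406.8 and 5763.7 normalized counts in control and 8626.4, 10484.2 and 4168.7 in M-Δx3,4 libraries (log2 fold change 0.26, SE 0.37). Gm2a, the GM2 activator that works with β-hexosaminidase, had 123.2, 115.5 and 110.2 in control and 142.8, 120.4 and 103.2 in M-Δx3,4 libraries (log2 fold change 0.07, SE 0.34). The transcription factor Tfeb had raw counts of 0, 1 and 0 in control and 0, 1 and 1 in M-Δx3,4 libraries and could not be tested at this depth.

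Reads from the 3′ end separate the alternative terminal exons of Lamp2, which give LAMP-2A, the receptor of chaperone-mediated autophagy, LAMP-2B and LAMP-2C different cytosolic tails. All lie on the minus strand of chromosome X, with counted regions at chrX:38404813-38405431 for LAMP-2A, chrX:38419258-38421711 for LAMP-2B and chrX:38401108-38402138 for LAMP-2C. The LAMP-2B exon held 95.88%, 92.96% and 94.68% of the raw counts of the 3 exons in control and 96.49%, 94.40% and 95.98% in M-Δx3,4 libraries. Its mean share was 94.5% ± 1.5 and 95.6% ± 1.1 (SD, n = 3), and the groups overlapped (exact permutation test, two-sided, p = 0.4). The LAMP-2A exon took 4.87% ± 1.3 in control and 4.03% ± 1.1 in M-Δx3,4 BMDMs (SD, n = 3; exact permutation test, two-sided, p = 0.4). LAMP-2A had 91.8, 56.2 and 54.5 normalized counts in control and 91.0, 84.5 and 81.8 in M-Δx3,4 libraries, again with control replicate 1 apart from the other control libraries. LAMP-2C had 16, 11 and 0 raw counts in control and 6, 5 and 16 in M-Δx3,4 libraries.

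**Figure D3:**
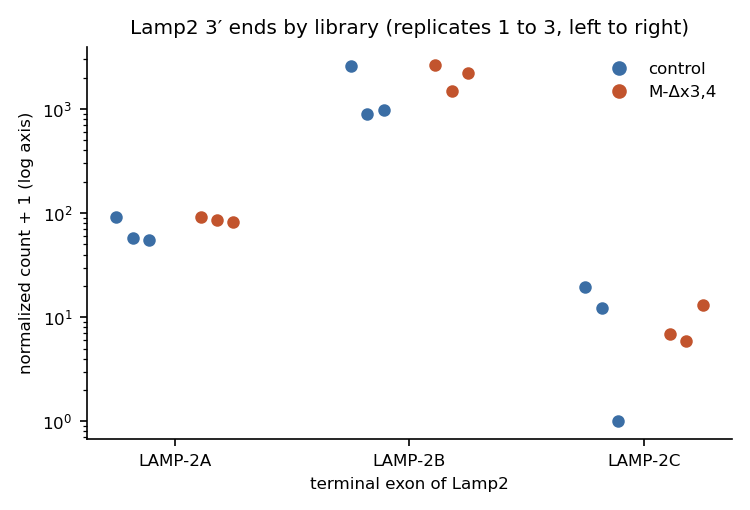
Normalized counts plus 1 (vertical log axis) of the LAMP-2A, LAMP-2B and LAMP-2C terminal exons of Lamp2 (horizontal axis) in each control and M-Δx3,4 library. The LAMP-2B exon lies above the other exons in every library, and the groups overlap for all 3 exons.

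The counted transcripts of the group held 74 different sets of counts, of which 37 belonged to transcripts other than the representative ones. Of these 37 sets, 2 had an unadjusted p under 0.05. The first was a Cd63 transcript that shares its 3′ end with the representative one (log2 fold change -0.83, SE 0.32). The other was a Gusb transcript (ENSMUST00000111307, chr5:129999350-130000030, mm10, minus strand) with 17.4, 49.0 and 51.0 normalized counts in control and 16.6, 22.3 and 16.8 in M-Δx3,4 libraries (log2 fold change -1.07, SE 0.48). Its libraries overlapped through control replicate 1, and it lies within the stretch of the representative Gusb transcript.

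The libraries of the control group differed among themselves along the GC content of the transcript ends. The ratio of the highest to the lowest library had a median of 1.81 in control and 1.35 in M-Δx3,4 over the 35 genes that averaged more than 20 normalized counts, and was wider in control for 26 of them. Of the 17 genes with less than 44.8% GC in their last 500 bases, the median for the group, 11 were lower in control replicate 3 than in control replicate 1, whereas 16 of the other 18 were higher. The ratio of control replicate 3 to replicate 1 was lowest for Atp6v1a (log2 ratio -2.22), Atp6ap2 (-2.10), Atp6v1c1 (-1.47) and Lamp2 (-1.40). It was highest for Hexa (1.35), Atp6v0b (1.26) and Atp6v0d1 (1.26). Across the 35 genes, which share the libraries and their depth, the log2 ratio had a Pearson r of 0.66 and a Spearman rho of 0.69 with GC. Across 6771 genes r was 0.51 and rho 0.59. For control replicate 2 over replicate 1, r was 0.64 over the 35 genes and 0.6 over the 6771. It was 0.21 and 0.18 for control replicate 3 over replicate 2. For M-Δx3,4 replicate 3 over replicate 1, r and rho were -0.45 and -0.37 over the 35 genes and -0.28 and -0.29 over the 6771. For M-Δx3,4 replicate 3 over replicate 2, r was -0.36 and -0.44, and for replicate 2 over replicate 1 it was 0.01 and 0.15. The log2 fold change between the groups had r = -0.36 and rho = -0.33 with GC over the 35 genes. Over the 6771 genes r was -0.3 and rho -0.44, so the relation is not particular to the group. The part of GC content in the differences between the groups was not tested.

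**Figure D4:**
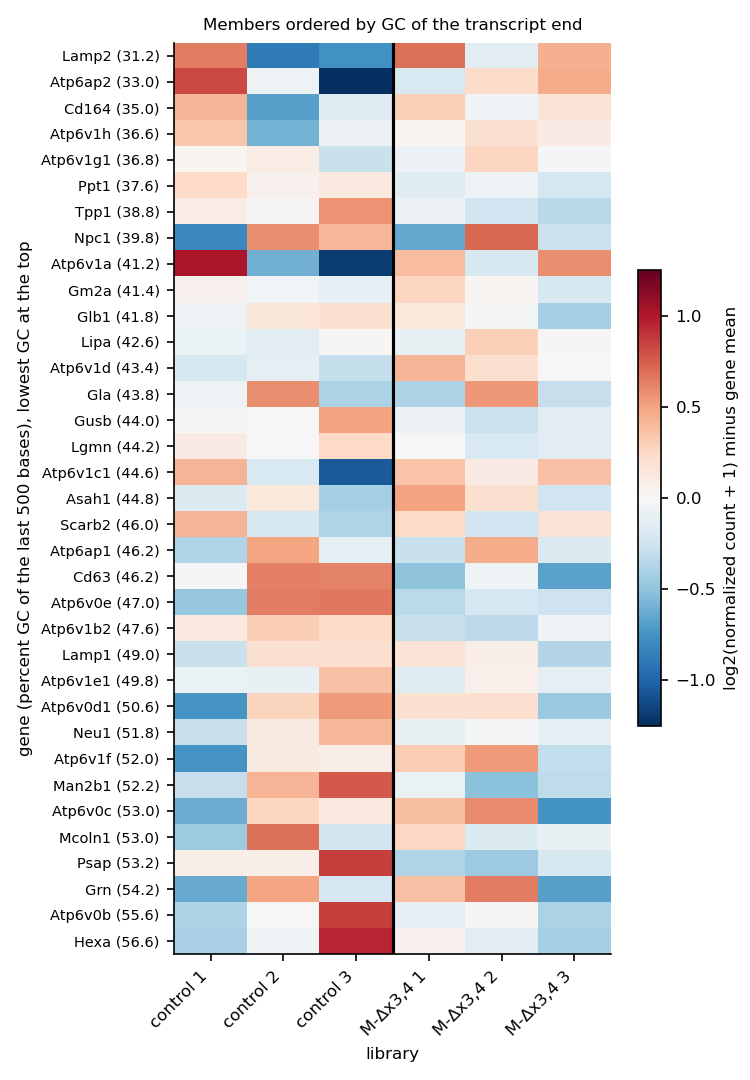
Log2(normalized count + 1) minus the mean of the gene over the 6 libraries (colour) for 35 genes, ordered from the lowest GC content of the last 500 bases (Lamp2, 31.2%) to the highest (Hexa, 56.6%), with control libraries left and M-Δx3,4 libraries right of the line. Control replicate 1 is high for genes at the top and low for those at the bottom, and control replicate 3 runs the other way.

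**Figure D5:**
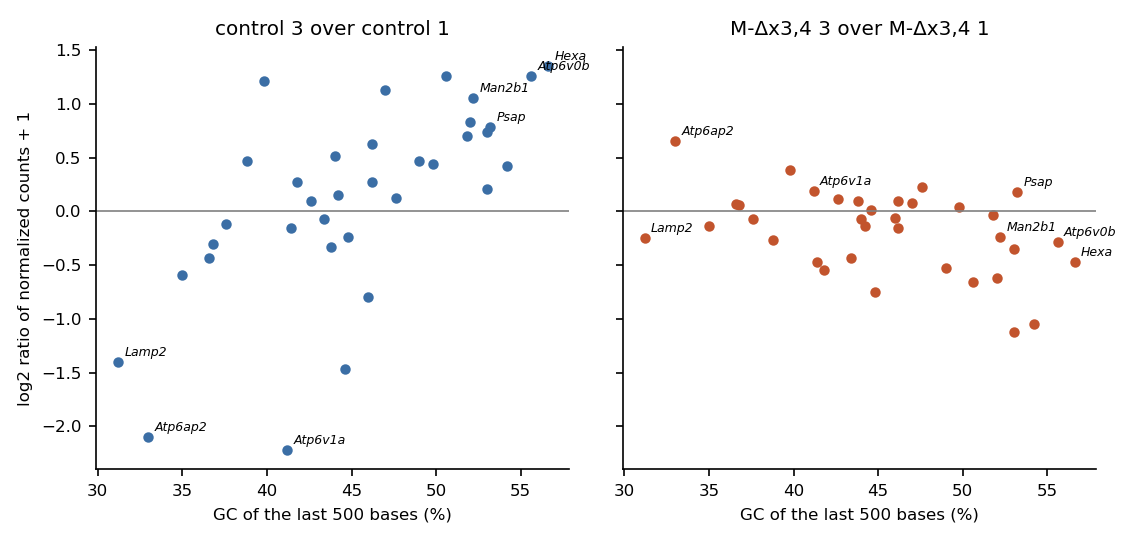
Log2 ratio of normalized counts + 1 (vertical axis) against GC content of the last 500 bases in percent (horizontal axis) for 35 genes, for control replicate 3 over control replicate 1 (left) and for M-Δx3,4 replicate 3 over M-Δx3,4 replicate 1 (right). The left panel rises with GC (r = 0.66) and the right panel slopes the other way (r = -0.45).

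The number of genes called depended on the library left out. Without control replicate 1, edgeR called 8 of 37 genes (21.6%), against 16.0% of all genes in the same fit. They were Atp6v0e (log2 fold change -0.92), Man2b1 (-0.89), Hexa (-0.69), Cd63 and Psap, which were lower, and Lamp2 (1.20), Atp6v1a (1.16) and Atp6v1c1 (0.84), which were higher in M-Δx3,4. Without M-Δx3,4 replicate 1 no gene of the group was called, against 2.79% of all genes. Without control replicate 2 or M-Δx3,4 replicate 3 only Psap was called (2.7% of the group, against 3.3% and 2.42% of all genes), and without control replicate 3 or M-Δx3,4 replicate 2 only Cd63 (2.7%, against 2.58% and 2.6%). These shares were near those of all genes.

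The promoters of the group were searched for TCACGTGA, a form of the CLEAR element that TFEB binds, and for CACGTG, the E-box that lies within it. Both read the same on either strand. RefSeq (GRCm38.p6) gave a promoter, from 250 bases before to 50 bases after the start, for 31 of the 38 genes. Atp6v1c1, Atp6v1g1, Atp6v1h, Atp6v1b2, Atp6v0d2, Npc1 and Asah1 had no entry. TCACGTGA was present in 6 of the 31 (19.4%), against 2.32% of the 8236 tested genes with an entry and 1.12% of all 27025 genes with one. CACGTG was present in 10 of the 31 (32.3%), against 12.03% and 8.09%. The genes were chosen as lysosomal, and TFEB acts on many lysosomal genes through such an element. These shares are therefore no independent finding, and they were not tested. The stretches around TCACGTGA, in capitals, are shown 5′ to 3′ on the strand of the gene because they are the letters that set these promoters apart from most others:
Atp6v0d1 (chr8:105566051-105566078, minus): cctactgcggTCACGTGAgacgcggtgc
Atp6v0e (chr17:26676388-26676415, plus): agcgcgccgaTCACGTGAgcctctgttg
Atp6v1a (chr16:44139374-44139401, minus): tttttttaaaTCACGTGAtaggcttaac
Cd164 (chr10:41519402-41519429, plus): gccgggctgcTCACGTGAccggcgcgcg
Gla, distal (chrX:134601216-134601243, minus): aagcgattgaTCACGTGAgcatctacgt
Gla, proximal (chrX:134601183-134601210, minus): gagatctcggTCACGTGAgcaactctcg
Mcoln1 (chr8:3500463-3500490, plus): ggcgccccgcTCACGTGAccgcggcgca

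The element begins 4 bases before the annotated start in Atp6v0d1, 46 in Mcoln1, 88 in Cd164, 132 in Atp6v1a, and 228 and 195 in Gla. In Atp6v0e it begins 2 bases after the first base of the transcript. The 6 genes had a median log2 fold change of -0.09 (from -0.63 to 0.23), and the 24 other tested genes with an entry one of -0.11 (from -0.83 to 0.53). Neither Cd63 nor Psap held TCACGTGA or CACGTG in this window.

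AUF1 binds AU-rich elements, so the annotated 3′ UTRs (GENCODE vM21) were searched for the pentamer ATTTA and the nonamer TTATTTATT, which contains it. At least 1 ATTTA was present in 26 of the 37 tested genes (70.3%), against 69.4% of 9735 genes. Cd63 and Psap had none. Of the 16 V-ATPase genes 14 had it (87.5%), and of the 11 hydrolases 7 (63.6%). The nonamer was present in 4 genes (10.8%), against 7.53% of the 9735, and is shown with its surroundings, nonamer in capitals, on the strand of the gene (GRCm38):
Atp6v0b (chr4:117884564-117884592, minus): tgccctactgTTATTTATTgctggttttc
Atp6v1e1 (chr6:120795255-120795283, minus): caaatattctTTATTTATTaaaacagagg
Atp6ap1 (chrX:74304287-74304315, plus): ccctctctccTTATTTATTcttgcccctc
Mcoln1 (chr8:3515093-3515121, plus): ggaccccagcTTATTTATTtttagaattt

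These 4 genes had log2 fold changes of -0.41, -0.14, -0.00 and -0.09, all with overlapping libraries. The median annotated 3′ UTR was 1090 bases in the group and 1204 bases in all genes, with 673.5 bases for the V-ATPase and 1662 bases for the hydrolases.

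Other genes of the lysosome were taken from lists of further V-ATPase genes, hydrolases, membrane and sorting proteins, and regulators of TFEB and mTORC1. Of 103 listed genes 90 were tested, 1 was lower and 1 was higher at an unadjusted p under 0.05 (2.22%, against 3.98% of all genes tested). Pld3, a lysosomal exonuclease, was the lower one. It had 222.0, 329.0 and 654.3 normalized counts in control and 177.0, 199.1 and 166.6 in M-Δx3,4 libraries (log2 fold change -1.15, SE 0.39, unadjusted p = 0.00996, adjusted p = 0.984, edgeR). The M-Δx3,4 libraries were all below control, and without control replicate 3 the log2 fold change was -0.60 and the gene was no longer called (unadjusted p = 0.0961). Atp6v0e2, a second form of the e subunit, was the higher one, with 0 counts in every control library and 2, 3 and 16 in M-Δx3,4 libraries. It passed the filter on low counts only through M-Δx3,4 replicate 3 (12.2 normalized counts), a library of the group where it is high. Its call is therefore no support for a difference. It was not called with filterByExpr or without that library. A floor of 3 counts per control library corresponds to 3.34 normalized counts. M-Δx3,4 replicates 1 and 2, with 2.0 and 2.9 normalized counts, lay below it and only M-Δx3,4 replicate 3 lay above. No lower bound on a difference between the groups can therefore be given. By list, 1 of 8 tested V-ATPase genes (12.5%, Atp6v0e2) and 1 of 33 hydrolases (3.03%) were called, against 3.98% of all genes. None of 27 membrane and sorting genes or 22 regulators was called. The median log2 fold changes of the 4 lists were 0.18, -0.14, -0.05 and 0.22.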

How the data were processed

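RNA was sequenced by the authors from 3′ ends (QuantSeq FWD, Ion Proton). Per the labels and the paper's methods, reads were mapped to mm10 with TopHat2 2.1.1 and Bowtie2 (version 2.3.2 in the submitters' processing notes) and counted by metaseqR2 on 3′ UTR regions. From the deposited tables, the authors' raw count of each region and their TPM were used. The deposited comparison columns (fold changes and p-values of several methods) and 18 further per-sample columns were not used.

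Counts of the 177303 regions were summed over 142567 transcripts. Scaling used edgeR's RLE factors, and a transcript entered the test if any library exceeded the median normalized count (4.89), which left 32475. The groups were compared with edgeR 4.0.16 (quasi-likelihood F test, R 4.3.3), and Benjamini-Hochberg adjustment ran over all transcripts tested. The standard error (SE) was derived from that test, as the absolute log2 fold change divided by the square root of its F statistic. No adjusted p was under 0.05 (smallest 0.824). A gene was called at an unadjusted p under 0.05, and single values had an exact two-sided permutation test. GC content is that of the last 500 bases of the GENCODE vM21 transcript. Lamp2 exons were named from the translated ends of their transcripts. Reads carry no molecular identifiers, so floors cover counting error only.

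The members and lists were chosen with earlier results of these data known. Values per library are given for genes that were called or did not overlap, for the 3 most abundant V-ATPase, hydrolase and membrane genes, for Psap, Grn, Gm2a and Tfeb, and for both d subunits, and other lysosomal genes are named if called. Atp6v0e, Atp6v0b, Atp6v1a, Atp6v1c1, Atp6ap2 and Man2b1 were added after their values were seen. Alternatives were TMM factors, no filter, filterByExpr, DESeq2 1.42.0, limma-voom (limma 3.58.1), a replicate block, 1 transcript per gene, removal of the GC trend of each library, another choice of representative transcript, stricter thresholds, and each library left out. A choice of transcripts with 1 counted region was added after seeing the data. The fits were tested on simulated counts.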

Additional observations from a re-analysis of the deposited data

How the results depend on the processing

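The number of genes of the group called was 2 under every alternative fit with all libraries kept. They were Cd63 and Psap, except with the GC trend removed without the block, where they were Cd63 and Tpp1. These were from 5.26% to 5.56% of those tested, against 2.82% to 4.77% of all genes in the same fits. The number was 0 at an unadjusted p under 0.01 and 0 when the log2 fold change also had to reach 1 in either direction. With 1 library left out it ran from 0 to 8. The other lysosomal genes called, 2 in the reported fit, were 5 with no filter, 1 with filterByExpr, 4 with limma-voom, 4 with the GC trend removed, and from 1 to 14 with 1 library left out. These were 5.21%, 1.28%, 4.44% and 4.44% of those tested, against 3.93%, 3.2%, 3.23% and 4.77% of all genes in the same fits. The 14 genes without control replicate 1 were 15.7%, against 16.0% of all genes. With 1 library left out the median log2 fold change of the group ran from -0.21 to 0.05, that of the V-ATPase from -0.14 to 0.14, that of the hydrolases from -0.29 to -0.14, that of the membrane proteins from -0.21 to 0.02 and that of the cofactors from -0.06 to 0.18. The share of the LAMP-2B exon is the same by highest region, since each Lamp2 transcript has 1 region.

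The sign of a log2 fold change near 0 changed in a few fits with all libraries kept. With the GC trend removed, Gm2a was at -0.08, Atp6v0d1 at 0.02 and Atp6ap2 at -0.05, and with the replicate block in addition Gm2a was at -0.08 and Atp6v0d1 at 0.05. Atp6ap1 was at 0.01 with TMM factors, 0.00 with limma-voom and 0.00 with the replicate block. With 1 library left out Hexa ran from -0.69 to 0.07, Lamp1 from -0.21 to 0.07, Grn from -0.02 to 0.62, Gm2a from -0.06 to 0.18, Atp6ap1 from -0.28 to 0.28, Atp6v1e1 from -0.22 to 0.03, Atp6v0d1 from -0.40 to 0.16, Atp6v1a from -0.13 to 1.16, Atp6v0b from -0.65 to 0.04 and Atp6ap2 from -0.24 to 0.74. Of 388 values of 23 named genes under alternatives, 348 kept their direction and side of the threshold. The cause of the others was not tested.

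Groups share replicate numbers, but the labels do not pair them. Deviations from the group means correlated at -0.21, 0.54 and -0.31 for numbers 1, 2 and 3, so the numbers do not pair the libraries. With the replicate block 2 genes of the group were called (5.41%, against 2.82% of all genes in that fit). With 3 libraries per group and a median standard error of 0.34, small differences are not detectable.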
